A study of Rattus norvegicus with 16 samples.

Results

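The members described here are the probe sets for the subunits of oxidative phosphorylation, the mitochondrial machinery that makes most of a cell's ATP. They were chosen by name: every probe set of the deposited table whose single annotated symbol starts with Nduf, Sdh followed by a to d, Uqcr, Cox4 to Cox8 or Atp5, or is Cyc1 or Cycs. The rule took 56 genes of the 4736 that have a probe set with a single symbol, and these 56 genes have 102 of the 8740 probe sets other than controls. Of the 102, 96 probe sets, which together still covered all 56 genes, passed the filter on low values and were tested among 6220. Another 7 probe sets that carry several symbols, one of them matching, were left out.

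The 16 arrays, of the Affymetrix RGU34A type with 1 colour, hold total RNA from rat dentate gyrus, the entry station of the hippocampus. The study sampled the tissue of rats in a passive avoidance task, in which an animal learns to withhold a response that was punished. There were 3 naive arrays, 2 arrays at 0 h, 2 at 2 h, 2 at 3 h, 3 at 6 h, 2 at 12 h and 2 at 24 h. The labels of all 7 groups, naive included, speak of trained rats. Here the naive group is taken as untrained and the 13 other arrays are called trained. The labels give no strain, sex or age, nor the event from which the hours were counted. Nothing in them says that replicates were separate animals, so the spread behind every p-value is that between these arrays and may be technical. In bulk tissue, fewer cells of a type and less RNA per cell cannot be told apart.

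As background, complex I takes electrons from NADH and complex II from succinate, complex III passes them to cytochrome c, and complex IV hands them to oxygen. Complexes I, III and IV pump protons out of the matrix, and complex V, the ATP synthase, lets them back in and makes ATP. Nearly all subunits are encoded in the nucleus, and a few of the core ones in the mitochondrial DNA. Some complex IV subunits exist as paired isoforms, one found in most tissues and one found mainly in heart and skeletal muscle or under particular conditions. In the hippocampus most of the ATP goes into ion pumping and synaptic transmission.

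By complex, the members were 46 probe sets for 26 genes of complex I (41 tested), 1 probe set for Sdha of complex II, 7 for 4 genes of complex III, 26 for 12 genes of complex IV (25 tested) and 13 for 9 genes of complex V. Cytochrome c and the other complex II subunits had no probe set under the rule and are not analysed here. The rule also took 9 probe sets that are not subunits. These were 4 for Atp5if1, the inhibitor of the ATP synthase, 3 for the assembly factor Ndufaf3, 1 for the assembly factor Sdhaf2 and 1 for Cox6c-ps1, a pseudogene of Cox6c. The annotation names Ndufa4 by its old place in complex I, though it is now counted with complex IV. Members were sorted by symbol, so the complex I counts and medians here include Ndufa4 and also Ndufa4l2, which is named after it. The 6 probe sets that did not pass the filter were 2 for Ndufa4l2 and 1 each for Ndufab1, Ndufb11, Ndufs4 and Cox6a2.

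The arrays differed before scaling, with a 2% trimmed mean from 33.3 (12 h replicate 1) to 170 (24 h replicate 2). The beta-actin 3′/5′ ratio, taken between its probe sets at either end of the transcript and a sign of how complete the labelled RNA was, ran from 1.49 to 1.70 on the naive arrays and from 1.51 to 2.80 on the trained arrays. It was 2.30 to 2.62 at 0 h and 2.40 to 2.80 at 12 h. Summed intensity of 8 dentate granule neuron probe sets (6 genes, among them Calb1 and Pdyn) lay between 893 and 1065 in naive and between 811 and 1105 over all hours. Neuron markers summed to 6264 to 6796 in naive, 4878 to 5877 at 6 h and 5341 to 6609 at 12 h, and choroid plexus markers to 4765 to 11916 in naive and 682 to 785 at 24 h. All values below are log2 of scaled intensity, on which the lowest level is 2.34. The level of one probe set is not set against that of another.

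No member passed the adjusted threshold of 0.05 (limma, Benjamini-Hochberg over 6220 probe sets) in any comparison with naive, in the F test over the 7 groups or in the F test over the 6 hours. Over all probe sets that threshold was passed by 0% in trained, 0 h, 3 h, 6 h, 12 h and 24 h minus naive and in both F tests, and by 0.0161% in 2 h minus naive. The lowest adjusted p of a member was 0.263 over the 7 groups and 0.231 over the hours, both for Ndufb2. At an unadjusted p under 0.05 the F test over the 7 groups took 26 members (27.1% of 96, against 10.3% of all probe sets). The F test over the hours took 22 (22.9%, against 10.8%). Without 0 h replicate 1 the former count was 11 and without 0 h replicate 2, 24 h replicate 2 or 12 h replicate 1 it was 16, 16 and 17. The comparisons with naive share the same 3 naive arrays, so each is given on its own.

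At an unadjusted p under 0.05, trained minus naive had 4 members higher and 2 lower. These were 4.17% of members against 1.66% of all probe sets, and 2.08% against 3.7%. Brackets below give the 2 shares in the same order. At 0 h, 4 were higher (4.17% against 1.53%) and 8 lower (8.33% against 3.47%). At 2 h, 2 were higher (2.08% against 3.6%) and 3 lower (3.12% against 4.07%). At 3 h, 1 was higher (1.04% against 0.772%) and 2 lower (2.08% against 3.54%). The counts were largest at 6 h and 12 h. At 6 h, 14 were higher (14.6% against 3.12%) and 3 lower (3.12% against 6.29%). At 12 h, 8 were higher (8.33% against 4.53%) and 15 lower (15.6% against 5.61%). At 24 h, 1 was higher (1.04% against 0.965%) and 2 lower (2.08% against 3.47%). The shares of members were thus 14.6% higher at 6 h and 15.6% lower at 12 h, both above those of all probe sets, and 2.08% or less in both directions at 3 h and 24 h.

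Every count of lower members includes the second Cox8b probe set, which passed the filter through naive arrays alone. The counts of higher members in trained and at 12 h include rc_AA799479_at of Ndufs8 and M20183_at of Cox6c-ps1, and those at 2 h and 6 h the latter, both of which passed through trained arrays alone. The counts at 6 h and 12 h rest on few arrays. The 14 higher at 6 h became 8 without naive replicate 2, 7 without naive replicate 3, 7 without 6 h replicate 2 and 8 without 6 h replicate 3, and the 3 lower became 10 without 6 h replicate 3. Quantile normalization gave 6 higher and 3 lower at 6 h. The 8 higher at 12 h became 3, 2 and 1 without naive replicate 1, naive replicate 2 and 12 h replicate 1, and 5 without either 24 h array. The 15 lower at 12 h became 9 without 12 h replicate 1. Median centring gave 3 higher and 19 lower at 12 h.

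**Figure D1:**
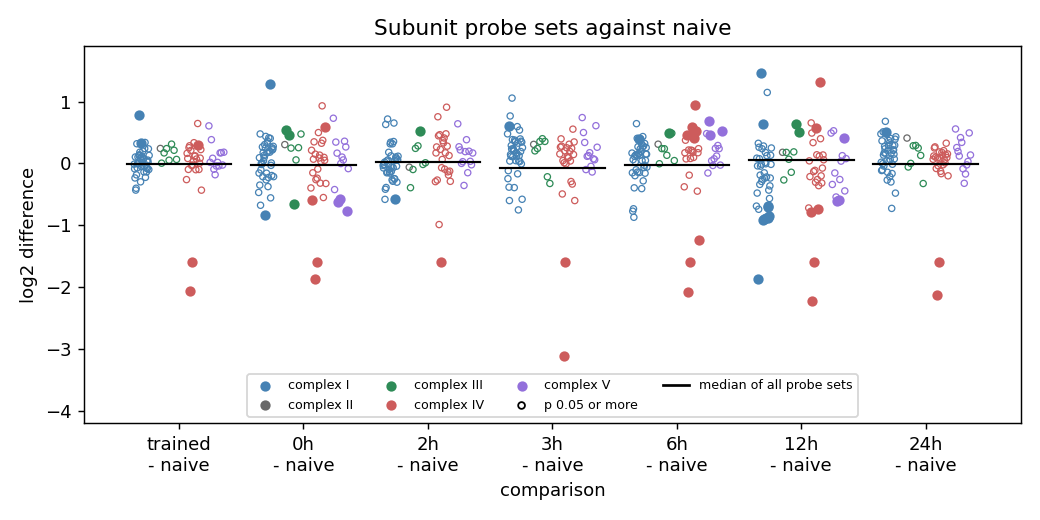
Log2 difference from naive (vertical axis) of each tested subunit probe set in the 7 comparisons, coloured by complex, with filled points at an unadjusted p under 0.05 and a black line at the median of all 6220 probe sets. The 2 complex IV points lowest in trained minus naive (-2.07 and -1.60) are Cox8b, and the filled points lie above the line at 6 h for 11 subunit probe sets and below it at 12 h for 14.

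Small shifts of the whole set had a direction that changed with the hour. Of the 96 tested members, 62 were higher in trained than in naive (median 0.06, against -0.01 and 47.6% higher among all probe sets). The numbers higher were 56 at 0 h (median 0.06), 53 at 2 h (0.04), 73 at 3 h (0.18), 69 at 6 h (0.16), 43 at 12 h (-0.04) and 70 at 24 h (0.14). Over all probe sets the medians were -0.02, 0.03, -0.07, -0.03, 0.06 and -0.004. So 12 h was the hour at which members were mostly lower while most other probe sets, 55.9%, were higher. Median centring moved the median of all probe sets at 3 h to 0.11 and that of the members to 0.37. It also turned 2 h to 41 higher and 55 lower, with a median of -0.05.

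The naive arrays themselves spanned this range. The median deviation of the members from their naive mean was 0.18, 0.004 and -0.16 on naive replicates 1 to 3. It was 0.08 and 0.06 at 0 h, 0.09 and 0.02 at 2 h, 0.17 and 0.25 at 3 h, -0.003, 0.15 and 0.31 at 6 h, -0.02 and -0.10 at 12 h, and 0.16 and 0.11 at 24 h. Only 3 h replicate 2 and 6 h replicate 3 lay outside the naive range. Without naive replicate 3 the median in trained was 0.0005, at 2 h -0.08 and at 24 h 0.018. Without naive replicate 1 it was 0.17 in trained, 0.16 at 2 h and 0.02 at 12 h.

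Among the 6 hours, 33 of 96 members had their lowest mean at 12 h, which held for 14.3% of all probe sets. Another 27 had their highest mean at 3 h, which held for 9.97% of all. At 12 h, 27 of 41 complex I probe sets were lower (median -0.19, with 8 lower and 2 higher at an unadjusted p under 0.05), and 5 of 7 in complex III were higher (median 0.18). The latter rests on 1 array, since the complex III medians were 0.30 on 12 h replicate 1 and -0.16 on replicate 2. Complexes IV and V were near even at 12 h, with 14 of 25 lower (median -0.11) and 7 of 13 lower (median -0.15). Whether complexes differ from each other was not tested.

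At 3 h all complexes were mostly higher, with 32 of 41 probe sets in complex I (median 0.19), 5 of 7 in III (0.24), 18 of 25 in IV (0.12) and 10 of 13 in V (0.13). At 6 h the medians were 0.13 for complex I, 0.24 for III, 0.21 for IV and 0.24 for V. At 24 h they were 0.17, 0.13, 0.09 and 0.14. The array medians of complex I at 12 h were -0.31 and -0.10, of which the first lay below the naive arrays at 0.25, -0.06 and -0.16. That first array, 12 h replicate 1, had the lowest trimmed mean before scaling, 33.3, and an actin ratio of 2.40. On 12 h replicate 2 the actin ratio was 2.80, the highest of the 16. The part of array brightness and RNA completeness was not tested.

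**Figure D2:**
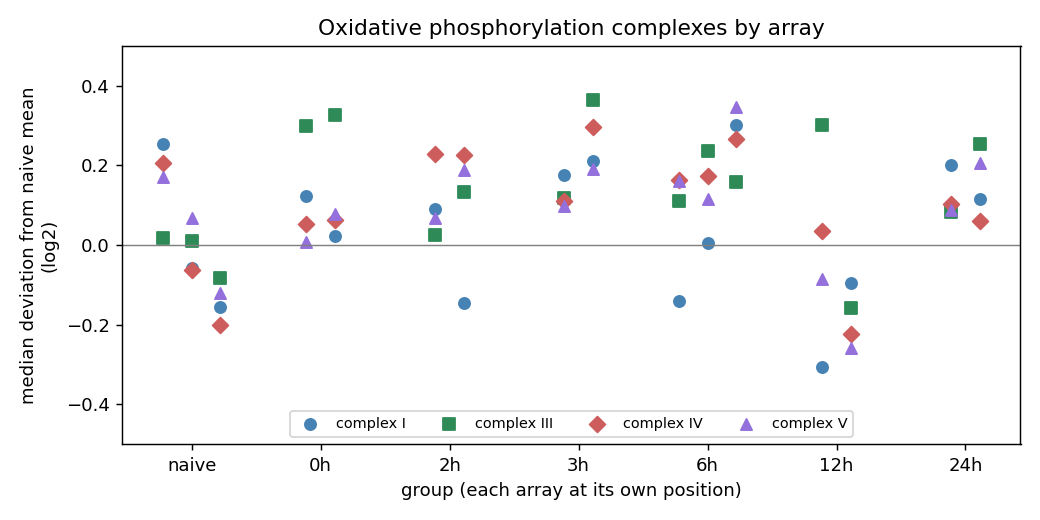
Median deviation from the naive mean (log2, vertical axis) of the tested probe sets of complexes I, III, IV and V on each of the 16 arrays, grouped by hour. The naive arrays span -0.16 to 0.25 for complex I, and 12 h replicate 1 lies at -0.31 for complex I and at 0.30 for complex III, while 12 h replicate 2 lies at -0.10 and -0.16.

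Complex I begins with its peripheral arm, where the core subunits hold the iron-sulphur clusters. Ndufs1, the largest of these core subunits, had levels of 4.79, 4.93 and 5.16 in naive, 5.60 and 5.27 at 0 h, 5.36 and 4.60 at 2 h, 4.84 and 4.31 at 3 h, 4.19, 3.66 and 4.83 at 6 h, 3.86 and 2.34 at 12 h, and 5.11 and 4.60 at 24 h. The 2 arrays at 12 h lay below every naive array, and 12 h replicate 2 was at the lowest level measurable. Its difference at 12 h was -1.86 (SE 0.46, adjusted p = 0.233), a bound because of that array. Ndufs8, another cluster-holding core subunit, has 4 probe sets, and rc_AA851379_at stood at 6.57, 6.06 and 6.10 in naive, 4.98 and 5.86 at 0 h, 5.95 and 6.26 at 2 h, 6.36 and 6.53 at 3 h, 7.12, 5.97 and 6.12 at 6 h, 4.98 and 5.68 at 12 h, and 6.02 and 5.92 at 24 h. Both arrays at 0 h and both at 12 h were below every naive array, and the differences were -0.83 (SE 0.36) and -0.91 (SE 0.36). The other 3 Ndufs8 probe sets did not follow it. For rc_AA799479_at the difference at 12 h was 1.46 (SE 0.50) and in trained 0.79 (SE 0.35), both at unadjusted p under 0.05, from a naive mean of 2.69 near the lowest level. This probe set passed the filter through trained arrays alone, so a higher trained level was a condition of testing it. AA685112_at was higher at 3 h by 0.60 (SE 0.28), and rc_AA799479_g_at differed by -0.01 at 12 h.

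Ndufs4, an accessory subunit needed for a stable peripheral arm, read 8.44, 8.03 and 8.22 in naive, 8.76 and 8.50 at 0 h, 8.11 and 7.85 at 2 h, 8.38 and 8.33 at 3 h, 8.01, 8.84 and 8.68 at 6 h, 7.04 and 8.02 at 12 h, and 8.21 and 8.23 at 24 h by rc_AI013297_g_at. Both 12 h arrays were below every naive array, replicate 1 far more so than replicate 2, and the difference was -0.70 (SE 0.28). Its second tested probe set, rc_AI013297_at, had a 12 h difference of -0.88 (SE 0.34). The probe sets of Ndufs6, Ndufs7, Ndufv2 and Ndufv3 gave no unadjusted p under 0.05 at 12 h.

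The membrane arm of complex I, where accessory subunits surround the proton channels, held further probe sets that were low at 12 h. Ndufb2 gave 10.47, 10.01 and 9.86 in naive, 10.24 and 10.01 at 0 h, 10.27 and 10.17 at 2 h, 10.52 and 10.50 at 3 h, 10.22, 10.42 and 10.66 at 6 h, 9.01 and 9.53 at 12 h, and 10.31 and 10.35 at 24 h. Both 12 h arrays were below all 14 others, and the difference from naive was -0.84 (SE 0.22, adjusted p = 0.258). Ndufb1 gave 8.95, 8.39 and 8.01 in naive, 8.15 and 8.30 at 0 h, 8.29 and 8.04 at 2 h, 9.46 and 8.64 at 3 h, 7.97, 8.33 and 7.83 at 6 h, 7.83 and 7.30 at 12 h, and 8.88 and 8.83 at 24 h. Again both 12 h arrays were below every naive array, with a difference of -0.89 (SE 0.29), while 3 h replicate 1 was the highest of all.

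Ndufb6 (rc_AI104528_at) had levels of 8.65, 8.14 and 7.59 in naive, 7.43 and 7.71 at 0 h, 8.22 and 8.13 at 2 h, 8.57 and 8.76 at 3 h, 7.70, 7.92 and 8.55 at 6 h, 7.49 and 7.38 at 12 h, and 8.42 and 8.40 at 24 h. Both 12 h arrays and 0 h replicate 1 were below every naive array, and the 12 h difference was -0.69 (SE 0.28). Ndufa3, a small accessory subunit of the same arm, measured 9.47, 9.18 and 8.49 in naive, 8.87 and 8.70 at 0 h, 9.59 and 9.19 at 2 h, 9.53 and 9.27 at 3 h, 8.38, 8.93 and 9.39 at 6 h, 8.13 and 8.18 at 12 h, and 9.35 and 9.33 at 24 h. The 12 h arrays were the lowest of the 16 with a difference from naive of -0.89 (SE 0.29). For Ndufc1, also an accessory subunit, rc_AI104679_s_at read 9.63, 9.11 and 9.32 in naive, 9.39 and 9.25 at 0 h, 8.99 and 8.56 at 2 h, 9.52 and 9.25 at 3 h, 9.20, 9.31 and 9.46 at 6 h, 8.73 and 9.12 at 12 h, and 9.58 and 9.55 at 24 h. Here the low hour was 2 h, with both arrays below every naive array and a difference of -0.58 (SE 0.21). Ndufb3 was higher at 24 h by 0.52 (SE 0.23).

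Ndufb8, an accessory subunit often used in blots as a sign of assembled complex I, had 4 tested probe sets. The one with the smallest p of complex I in trained minus naive, rc_AA851403_g_at, read 10.19, 9.78 and 9.91 in naive, 10.45 and 10.35 at 0 h, 10.24 and 10.32 at 2 h, 10.22 and 10.46 at 3 h, 10.02, 10.70 and 10.37 at 6 h, 10.30 and 10.19 at 12 h, and 10.10 and 10.25 at 24 h. All 13 trained arrays were above the naive mean and 10 were above every naive array. The differences were 0.34 (SE 0.15, adjusted p = 0.931) in trained and 0.40 (SE 0.19) at 6 h. The dim probe set rc_AA999168_at gave 3.82, 4.47 and 4.70 in naive, 5.70 and 5.51 at 0 h, 5.06 and 4.90 at 2 h, 2.98 and 4.18 at 3 h, 4.56, 6.21 and 3.52 at 6 h, 5.60 and 5.36 at 12 h, and 2.99 and 4.21 at 24 h. It was above every naive array at 0 h, 2 h and 12 h and scattered at 6 h, and the 0 h difference was 1.28 (SE 0.60). At 12 h rc_AA851403_at was higher by 0.64 (SE 0.28). All 4 were higher at 12 h, from 0.13 to 1.15, the reverse of Ndufb1, Ndufb2 and Ndufb6 in the same arm.

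**Figure D3:**
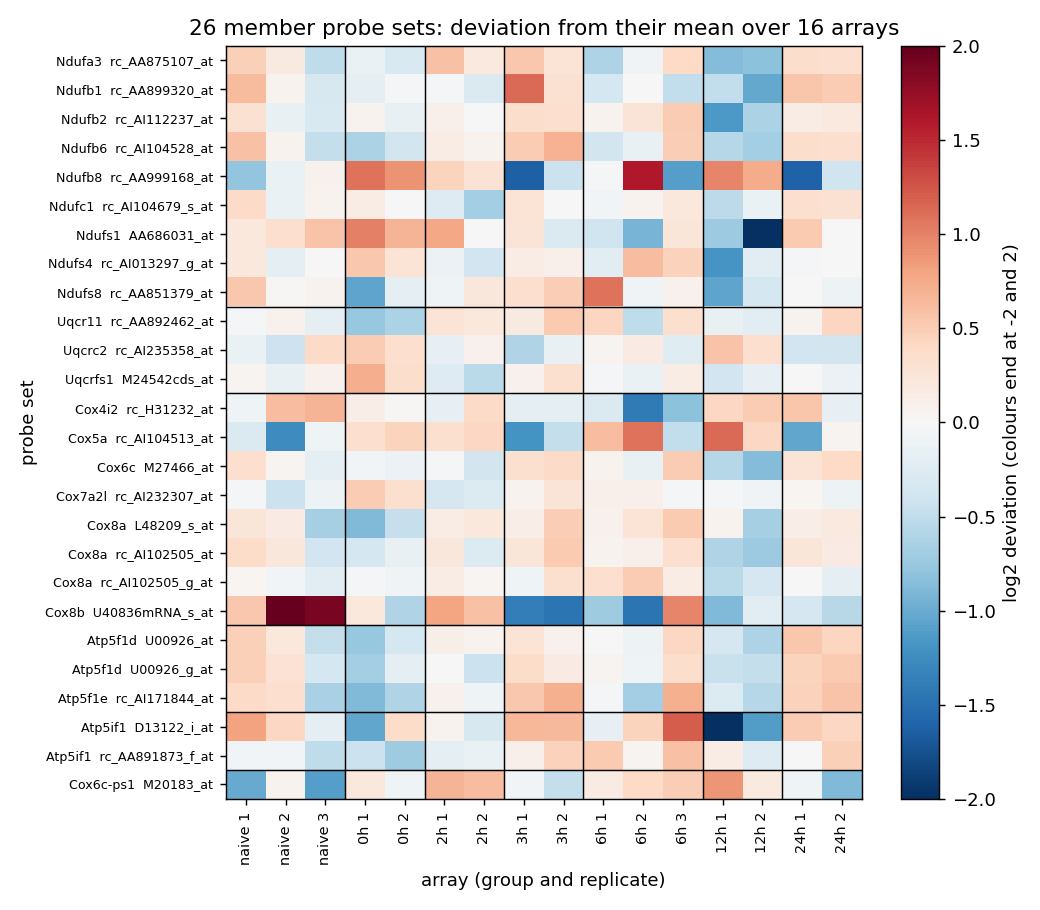
Deviation of each array (columns, by group and replicate) from the probe set's mean over 16 arrays, in log2 and with colours that end at -2 and 2, for the 26 members at an unadjusted p under 0.05 in the F test over the 7 groups (rows, by complex). The complex I rows Ndufa3, Ndufb1, Ndufb2, Ndufb6 and Ndufs1 are blue at 12 h, and the Cox8b row is red on naive replicates 2 and 3.

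Complex II was measured by Sdha alone, the flavoprotein that oxidizes succinate in the citric acid cycle. Its levels were 8.49, 9.04 and 8.19 in naive, 8.76 and 8.99 at 0 h, 8.78 and 8.24 at 2 h, 8.81 and 8.95 at 3 h, 8.98, 8.83 and 8.84 at 6 h, 8.63 and 8.87 at 12 h, and 8.86 and 9.10 at 24 h. The trained arrays, from 8.24 to 9.10, lay almost wholly within the naive range of 8.19 to 9.04. The difference in trained was 0.24 (SE 0.17, adjusted p = 0.981).

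In complex III, Uqcrfs1 is the Rieske iron-sulphur protein that passes electrons towards cytochrome c. Its probe set M24542cds_at read 8.62, 8.43 and 8.66 in naive, 9.30 and 8.93 at 0 h, 8.32 and 8.04 at 2 h, 8.66 and 8.89 at 3 h, 8.53, 8.44 and 8.73 at 6 h, 8.19 and 8.41 at 12 h, and 8.57 and 8.45 at 24 h. The 0 h arrays were the highest and both above every naive array, while the 2 h and 12 h arrays lay below the naive range. The 0 h difference was 0.54 (SE 0.20), and that of M24542cds_g_at was 0.46 (SE 0.19). The remaining probe set, rc_AI103911_at, was higher at 12 h instead, by 0.64 (SE 0.27).

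Uqcrc2, a core protein of complex III on its matrix side, gave 9.18, 8.89 and 9.70 in naive, 9.81 and 9.65 at 0 h, 9.14 and 9.39 at 2 h, 8.71 and 9.16 at 3 h, 9.37, 9.47 and 9.07 at 6 h, 9.88 and 9.65 at 12 h, and 8.92 and 8.94 at 24 h. The 0 h and 12 h arrays were high, though naive replicate 3 lay among them, and the 12 h difference was 0.51 (SE 0.24). Uqcr11, the smallest subunit, has 2 probe sets that differed in direction at 0 h. With rc_AA926137_s_at, which had the smallest p of complex III in trained minus naive, the levels were 11.05, 10.75 and 10.42 in naive, 10.72 and 10.87 at 0 h, 11.23 and 11.30 at 2 h, 11.04 and 11.14 at 3 h, 11.19, 11.35 and 11.16 at 6 h, 11.35 and 10.50 at 12 h, and 10.98 and 10.99 at 24 h. All arrays at 2 h and 6 h were above every naive array, by 0.53 (SE 0.24) and 0.50 (SE 0.21). In trained the difference was 0.31 (SE 0.17, adjusted p = 0.981). With rc_AA892462_at the levels were 10.94, 11.07 and 10.78 in naive, 10.21 and 10.34 at 0 h, 11.25 and 11.18 at 2 h, 11.15 and 11.50 at 3 h, 11.41, 10.47 and 11.30 at 6 h, 10.82 and 10.75 at 12 h, and 11.04 and 11.40 at 24 h, with both 0 h arrays below the rest and a 0 h difference of -0.65 (SE 0.25). Cyc1, the cytochrome of the complex, gave no unadjusted p under 0.05 against naive.

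Complex IV holds the isoforms that differ between tissues. The largest difference from naive of any member in trained belonged to Cox8b, the heart and muscle isoform of subunit 8, whose widespread partner is Cox8a. Probe set U40836mRNA_s_at read 4.34, 6.41 and 5.71 in naive, 4.02 and 3.20 at 0 h, 4.60 and 4.39 at 2 h, 2.41 and 2.34 at 3 h, 3.10, 2.34 and 4.77 at 6 h, 2.92 and 3.60 at 12 h, and 3.46 and 3.24 at 24 h. All 13 trained arrays were below the naive mean and 10 were below every naive array, but naive replicate 1 at 4.34 lay among the 2 h and 6 h arrays. In trained minus naive the difference was -2.07 (SE 0.46, adjusted p = 0.252), which is at least 4.19-fold lower, since 3 h replicate 2 and 6 h replicate 2 were at the lowest level. By hour it was -1.87 (SE 0.65) at 0 h, -3.11 (SE 0.65) at 3 h, -2.08 (SE 0.58) at 6 h, -2.22 (SE 0.65) at 12 h and -2.13 (SE 0.65) at 24 h. The 3 h and 6 h values are bounds for the same reason, and true sizes may be larger. At 2 h the unadjusted p was above 0.05. The F test over the 6 hours gave it an adjusted p of 0.579.

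The second Cox8b probe set, X64827cds_s_at, was above the lowest level on only 2 arrays, naive replicates 2 and 3 at 5.17 and 4.30. It passed the filter on low values through these alone, so its difference is no evidence for that of the first and is given without a test. Naive replicate 1 and all 13 trained arrays were at the lowest level, which puts the naive mean at least 1.60 above trained on the log2 scale. For the first probe set, leaving out naive replicate 1, its lowest naive array, gave -2.64 (adjusted p = 0.0301) in trained and -3.68 (adjusted p = 0.0327) at 3 h. Leaving out 6 h replicate 3, its highest 6 h array, gave -2.77 (adjusted p = 0.041) at 6 h. Both deletions take out the array nearest to the other side, which by itself widens the difference, so these values add no support. With all arrays none of the 3 comparisons passed the adjusted threshold (adjusted p = 0.402 at 3 h and 0.373 at 6 h).

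Choroid plexus markers, like Cox8b, were mostly lower in trained. Their summed intensity (27 probe sets for 12 genes) was 4765, 10688 and 11916 on the naive arrays, 6576 and 992 at 0 h, 796 and 1920 at 2 h, 1278 and 1023 at 3 h, 10146, 2791 and 5380 at 6 h, 964 and 1237 at 12 h, and 785 and 682 at 24 h. Of the 20 tested, 18 were lower in trained (median -1.48), 13 of them at an unadjusted p under 0.05, against 3.7% of all probe sets. Naive replicates 2 and 3 were highest in both. At 0 h the array with the higher sum, 6576 against 992, also had more Cox8b. The trained array with the most Cox8b, 6 h replicate 3, had a sum of 5380. Other arrays went the other way, as 6 h replicate 1, with a marker sum of 10146, had Cox8b at 3.10. Further, 2 h replicate 1, with a sum of 796, had more Cox8b than naive replicate 1, with a sum of 4765. The part of choroid plexus tissue in the Cox8b difference was not tested. Of the 14 tested striated muscle markers 8 were higher in trained (median 0.07), and their sum was 445 to 557 in naive and 433 to 702 over the hours. Of the brown fat list, 1 probe set was tested, at -0.47 in trained.

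**Figure D4:**
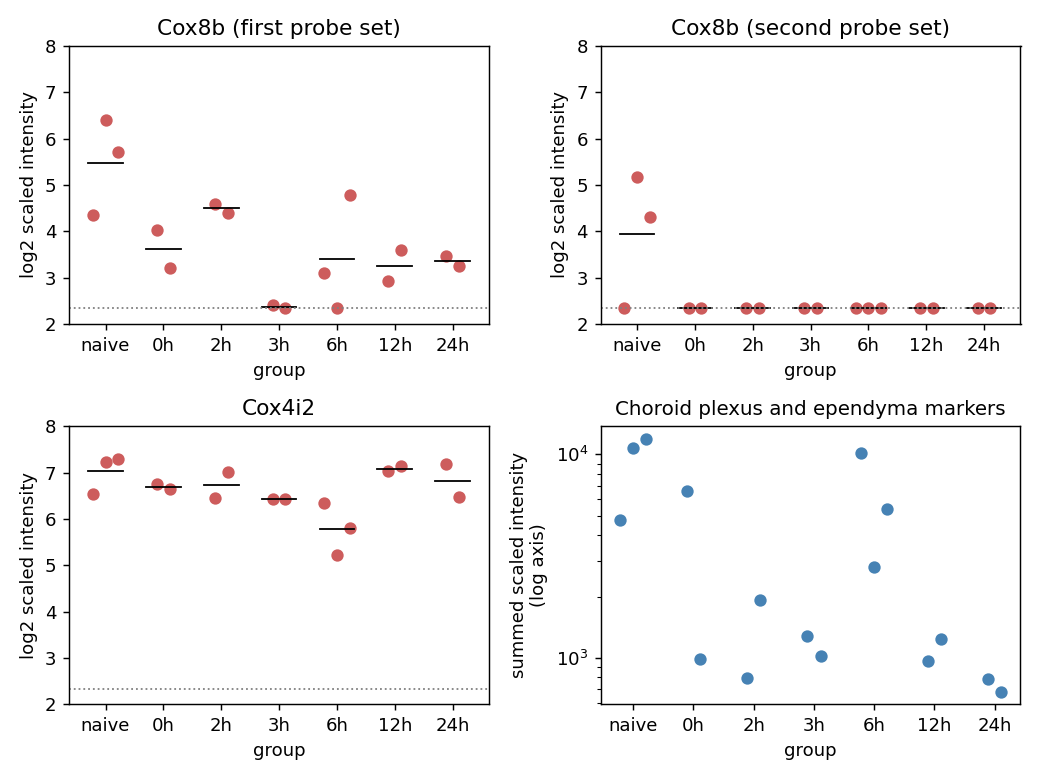
Log2 scaled intensity of the 2 Cox8b probe sets and of Cox4i2 on each array (points, with group means as bars and the lowest level dotted), and the summed scaled intensity of choroid plexus and ependyma markers on a log axis. Cox8b is highest on naive replicates 2 and 3 (6.41 and 5.71 by the first probe set), and the 6 h arrays of Cox4i2 (5.21 to 6.33) are all below naive.

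Cox4i2, the isoform of subunit 4 that responds to low oxygen and is known from lung and from the cells around small vessels, was low at 6 h. Its levels were 6.53, 7.24 and 7.30 in naive, 6.75 and 6.65 at 0 h, 6.46 and 7.01 at 2 h, 6.42 and 6.42 at 3 h, 6.33, 5.21 and 5.81 at 6 h, 7.03 and 7.14 at 12 h, and 7.18 and 6.46 at 24 h. All 3 arrays at 6 h were below every naive array, and they were the 3 lowest of the 16. The 6 h difference was -1.24 (SE 0.29, adjusted p = 0.368), which is 2.36-fold lower, and left out in turn the arrays gave -0.95 to -1.51. Endothelial and mural cell markers at 6 h were lower for 10 of 16 probe sets with a median of -0.18, and their summed intensity was 857 to 1351 at 6 h and 932 to 1231 in naive. Their part in the Cox4i2 difference was not tested.

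Cox4i1, the common partner of Cox4i2 and the subunit through which ATP slows complex IV, has 3 probe sets. J05425cds_s_at read 11.25, 11.29 and 11.17 in naive, 11.42 and 11.48 at 0 h, 11.42 and 11.40 at 2 h, 11.35 and 11.65 at 3 h, 11.77, 10.97 and 11.50 at 6 h, 11.42 and 11.14 at 12 h, and 11.34 and 11.38 at 24 h, with all groups within a narrow band except 6 h. X54081mRNA_i_at read 9.98, 9.70 and 9.51 in naive, 9.49 and 9.44 at 0 h, 9.96 and 9.96 at 2 h, 9.84 and 10.03 at 3 h, 9.93, 8.75 and 9.95 at 6 h, 9.69 and 9.51 at 12 h, and 9.60 and 9.79 at 24 h, with 6 h replicate 2 well below the others. For rc_AA818226_s_at the levels were 11.64, 11.43 and 11.76 in naive, 12.17 and 12.05 at 0 h, 11.90 and 12.06 at 2 h, 11.53 and 11.93 at 3 h, 12.37, 12.47 and 11.77 at 6 h, 12.55 and 11.81 at 12 h, and 11.48 and 11.49 at 24 h. By this probe set all arrays at 0 h, 2 h, 6 h and 12 h were above every naive array, and those at 24 h were not. Its highest arrays, 12 h replicate 1 and 6 h replicates 2 and 1, had trimmed means of 33.3, 68.4 and 56.5 before scaling. Those of naive were 113 to 143 and those of 24 h 117 and 170. But 2 h replicate 2, with 56.6, read 12.06, below 0 h replicate 1, with 100. The part of array brightness was not tested. Its differences were 0.59 (SE 0.23) at 6 h and 0.57 (SE 0.25) at 12 h.

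Cox8a, the widespread partner of Cox8b, has 4 probe sets with opposite patterns. L48209_s_at read 11.15, 11.06 and 10.24 in naive, 10.01 and 10.44 at 0 h, 11.05 and 11.12 at 2 h, 11.04 and 11.39 at 3 h, 10.98, 11.17 and 11.43 at 6 h, 10.97 and 10.24 at 12 h, and 11.04 and 11.10 at 24 h. The low arrays were those at 0 h, naive replicate 3 and 12 h replicate 2, and the 0 h difference was -0.59 (SE 0.28). By rc_AI102505_at the levels were 11.19, 11.05 and 10.44 in naive, 10.48 and 10.67 at 0 h, 11.05 and 10.55 at 2 h, 11.06 and 11.34 at 3 h, 10.89, 10.92 and 11.16 at 6 h, 10.22 and 10.09 at 12 h, and 11.07 and 10.98 at 24 h, with both 12 h arrays below every naive array and a difference of -0.74 (SE 0.23). By rc_AI102505_g_at they were 11.62, 11.52 and 11.37 in naive, 11.56 and 11.52 at 0 h, 11.73 and 11.62 at 2 h, 11.49 and 11.91 at 3 h, 11.91, 12.08 and 11.73 at 6 h, 11.04 and 11.25 at 12 h, and 11.57 and 11.39 at 24 h. Here too the 12 h arrays were lowest, but all 6 h arrays were above naive, by 0.40 (SE 0.18). By M28255_s_at the levels were 11.45, 11.35 and 11.61 in naive, 11.98 and 11.66 at 0 h, 11.87 and 11.96 at 2 h, 11.29 and 11.74 at 3 h, 12.00, 12.20 and 11.58 at 6 h, 12.24 and 11.68 at 12 h, and 11.42 and 11.36 at 24 h. This probe set was higher at 6 h by 0.46 (SE 0.21) and differed by 0.49 (SE 0.23) at 12 h, where rc_AI102505_at was lower. Its highest arrays, 12 h replicate 1 and 6 h replicate 2, had trimmed means of 33.3 and 68.4 before scaling. The part of array brightness was not tested.

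The promoters of this isoform pair and of Cox6a2 are shown because Cox8b and Cox6a2 are known from heart and muscle and Cox8a from most tissues. They come from RefSeq (build GRCr8) and run from 250 bases before to 50 after the start of transcription, with searched motifs in capitals on either strand. The motifs were GGGCGG (the SP1 core), CCGGAAG (an ETS core that NRF-2 binds), TGCGCA (the NRF-1 core), CAGCTG (an E-box), CCAAT (the CCAAT box), TATAAA (the TATA box) and AAGGTCA (the ERR core), and no marked match overlaps another.
Cox8a, minus strand, chr1:213833574-213833873: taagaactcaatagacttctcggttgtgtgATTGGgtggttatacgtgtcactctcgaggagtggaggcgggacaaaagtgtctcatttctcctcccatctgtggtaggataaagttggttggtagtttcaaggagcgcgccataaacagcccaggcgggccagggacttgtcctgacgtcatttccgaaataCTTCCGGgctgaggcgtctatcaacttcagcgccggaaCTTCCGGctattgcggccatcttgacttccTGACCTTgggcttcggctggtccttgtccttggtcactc
Cox8b, minus strand, chr1:205408224-205408523: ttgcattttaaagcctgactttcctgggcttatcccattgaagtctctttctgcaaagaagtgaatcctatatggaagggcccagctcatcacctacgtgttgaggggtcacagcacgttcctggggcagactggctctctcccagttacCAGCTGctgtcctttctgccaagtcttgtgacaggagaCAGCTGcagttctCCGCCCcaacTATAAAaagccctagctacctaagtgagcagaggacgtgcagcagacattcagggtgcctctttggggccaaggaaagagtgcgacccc
Cox6a2, minus strand, chr1:192219667-192219966: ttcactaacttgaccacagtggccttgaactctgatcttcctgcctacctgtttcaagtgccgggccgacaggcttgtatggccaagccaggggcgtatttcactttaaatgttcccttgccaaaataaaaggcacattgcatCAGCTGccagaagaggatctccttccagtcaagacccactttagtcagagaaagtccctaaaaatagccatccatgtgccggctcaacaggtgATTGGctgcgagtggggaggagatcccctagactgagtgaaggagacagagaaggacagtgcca
The Cox8a window holds the ETS core, the CCAAT box and the ERR core, the Cox8b window the SP1 core, the E-box and the TATA box, and the Cox6a2 window the E-box and the CCAAT box. Cox8b and Cox6a2 had 5 CpG each, the fewest of the 44 subunit genes matched (of 52), and Cox8a had 16. The median was 20 CpG for the subunit genes and 7 for all 33469 promoters in the table.

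Over the 44 promoters several motifs of known regulators of respiratory genes had a larger share than over all promoters, with no test made. The NRF-1 core was in 25% of them against 7.24% of all promoters, the ETS core in 20.5% against 8.75%, the ERR core in 11.4% against 4.61% and the SP1 core in 43.2% against 33.1%. The E-box was in 22.7% against 15.1%, the CCAAT box in 34.1% against 37.5%, and the TATA box in 4.55% against 14.2%. The NRF-1, ETS and SP1 cores contain CG, the ERR core does not, and the subunit promoters had a median of 20 CpG against 7. The part of CpG content in these shares was not tested. The motif hits are matches of letters, and nothing in the arrays tests them.

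Cox6a2 is the heart and muscle isoform of subunit 6a, and Cox6a1 its widespread partner. X72758mRNA_at, for Cox6a2, was at the lowest level on all 16 arrays. X12554cds_s_at gave 6.19, 6.29 and 5.79 in naive, 6.26 and 6.22 at 0 h, 6.52 and 6.58 at 2 h, 6.26 and 5.94 at 3 h, 6.31, 6.26 and 6.34 at 6 h, 6.79 and 6.06 at 12 h, and 6.19 and 6.16 at 24 h, and rc_AI171644_s_at gave 5.32, 5.50 and 4.51 in naive, 3.57 and 5.55 at 0 h, 4.43 and 5.52 at 2 h, 5.41 and 4.14 at 3 h, 5.53, 5.61 and 5.68 at 6 h, 5.88 and 3.93 at 12 h, and 5.45 and 5.05 at 24 h. Both arrays at 2 h by the first and all 3 at 6 h by the second were above every naive array, but neither gave an unadjusted p under 0.05 in a comparison with naive. Suffix _s_at marks a probe set whose probes may also match other transcripts.

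Cox6a1 read 11.24, 11.11 and 11.17 in naive, 11.61 and 11.48 at 0 h, 11.48 and 11.43 at 2 h, 11.23 and 11.61 at 3 h, 11.71, 11.86 and 11.52 at 6 h, 11.84 and 11.30 at 12 h, and 11.21 and 11.15 at 24 h by rc_AI104520_s_at. All 3 arrays at 6 h were above every naive array, as were 10 of the 13 trained arrays. The difference was 0.31 (SE 0.14, adjusted p = 0.931) in trained and 0.52 (SE 0.18) at 6 h. The highest arrays, 6 h replicate 2 and 12 h replicate 1, had trimmed means of 68.4 and 33.3 before scaling. The part of array brightness was not tested. X72757_at gave 6.31, 5.37 and 5.48 in naive, 5.33 and 5.63 at 0 h, 5.46 and 5.84 at 2 h, 5.52 and 5.91 at 3 h, 5.65, 5.65 and 6.10 at 6 h, 5.33 and 5.89 at 12 h, and 6.05 and 5.76 at 24 h and X72757_g_at gave 11.15, 10.61 and 10.53 in naive, 10.47 and 10.87 at 0 h, 10.83 and 10.82 at 2 h, 10.89 and 11.15 at 3 h, 10.83, 10.88 and 11.22 at 6 h, 10.59 and 10.33 at 12 h, and 10.80 and 10.89 at 24 h. In both, naive replicate 1 was among the highest arrays, and neither gave an unadjusted p under 0.05.

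Among the other complex IV members with a related isoform, Cox7a2l, which helps complexes III and IV to join into a supercomplex, read 9.05, 8.64 and 8.96 in naive, 9.57 and 9.39 at 0 h, 8.73 and 8.79 at 2 h, 9.13 and 9.33 at 3 h, 9.17, 9.17 and 9.04 at 6 h, 9.05 and 9.00 at 12 h, and 9.11 and 8.97 at 24 h by rc_AI232307_at. The 0 h arrays were the 2 highest, with a difference of 0.59 (SE 0.18, adjusted p = 0.793). By rc_AI172452_at the levels were 9.07, 8.46 and 8.10 in naive, 8.67 and 8.61 at 0 h, 7.91 and 8.80 at 2 h, 8.97 and 9.22 at 3 h, 8.52, 6.85 and 8.91 at 6 h, 8.58 and 7.87 at 12 h, and 8.66 and 9.08 at 24 h, with 6 h replicate 2 far below the rest. Cox7b, a small subunit, measured 9.37, 9.11 and 9.17 in naive, 9.21 and 9.40 at 0 h, 9.49 and 9.61 at 2 h, 9.05 and 9.56 at 3 h, 9.18, 9.48 and 9.61 at 6 h, 9.47 and 9.24 at 12 h, and 8.89 and 9.21 at 24 h, with every group overlapping naive except 2 h, which was above it.

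Cox6b1, which joins complex IV units into a dimer, read 10.68, 10.31 and 10.39 in naive, 10.91 and 10.67 at 0 h, 10.85 and 11.02 at 2 h, 10.75 and 10.25 at 3 h, 10.86, 11.04 and 11.05 at 6 h, 11.09 and 10.07 at 12 h, and 10.64 and 10.70 at 24 h by rc_AI104035_s_at. All 6 h arrays were above naive, by 0.52 (SE 0.23), and the 12 h arrays were split on both sides of it. By rc_AA946040_at it read 9.28, 8.45 and 8.44 in naive, 8.79 and 8.92 at 0 h, 9.03 and 9.24 at 2 h, 9.09 and 8.55 at 3 h, 8.64, 8.64 and 9.43 at 6 h, 8.74 and 8.18 at 12 h, and 8.79 and 9.01 at 24 h, where 6 h replicate 3 alone was above naive replicate 1. Cox7a1, Cox7a2 and Cox6b2 had no probe set under the rule and are not analysed here.

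Of the subunits without isoform pairs, Cox5a, a subunit on the matrix side, was dim at 4.46, 3.49 and 4.66 in naive, 5.07 and 5.19 at 0 h, 5.07 and 5.15 at 2 h, 3.54 and 4.27 at 3 h, 5.36, 5.84 and 4.25 at 6 h, 5.88 and 5.16 at 12 h, and 3.71 and 4.80 at 24 h. Its arrays at 0 h, 2 h and 12 h were above every naive array, and the differences were 0.95 (SE 0.44) at 6 h and 1.32 (SE 0.49) at 12 h. Cox6c (M27466_at), a subunit without a known catalytic role, gave 7.87, 7.59 and 7.36 in naive, 7.49 and 7.42 at 0 h, 7.51 and 7.17 at 2 h, 7.85 and 7.92 at 3 h, 7.61, 7.39 and 8.04 at 6 h, 6.97 and 6.68 at 12 h, and 7.82 and 7.93 at 24 h. Both 12 h arrays were the lowest of the 16, and the difference was -0.78 (SE 0.23, adjusted p = 0.312). Its second probe set lay 0.66 above naive at 12 h. The pseudogene Cox6c-ps1 gave 3.00, 4.07 and 2.90 in naive, 4.21 and 3.92 at 0 h, 4.67 and 4.62 at 2 h, 3.94 and 3.53 at 3 h, 4.16, 4.40 and 4.50 at 6 h, 4.89 and 4.19 at 12 h, and 3.91 and 3.12 at 24 h. It was higher by 0.82 (SE 0.31) in trained, 1.33 (SE 0.44) at 2 h, 1.03 (SE 0.39) at 6 h and 1.22 (SE 0.44) at 12 h, from 2 naive arrays close to the lowest level. All 3 naive arrays were under the filter level of 4.08, so it too was tested only through its trained arrays.

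In complex V, Atp5po is the protein at the top of the stalk that holds the catalytic head still. Its probe set D13127_g_at had the smallest p of the complex in trained minus naive and read 10.80, 10.83 and 10.73 in naive, 11.12 and 11.14 at 0 h, 10.94 and 11.07 at 2 h, 10.88 and 11.37 at 3 h, 11.08, 12.02 and 11.31 at 6 h, 11.62 and 11.01 at 12 h, and 10.89 and 11.07 at 24 h. All 13 trained arrays were above every naive array, and the naive values lay close together. The highest arrays, 6 h replicate 2 and 12 h replicate 1, had trimmed means of 68.4 and 33.3 before scaling. The part of array brightness was not tested. The differences were 0.38 (SE 0.18, adjusted p = 0.936) in trained and 0.68 (SE 0.23, adjusted p = 0.416) at 6 h. Its other probe set, D13127_at, did not follow it. That one read 9.94, 9.96 and 9.40 in naive, 9.33 and 9.36 at 0 h, 9.91 and 10.16 at 2 h, 10.16 and 10.37 at 3 h, 9.73, 8.62 and 10.48 at 6 h, 9.52 and 9.34 at 12 h, and 9.86 and 10.19 at 24 h. Both 0 h arrays were below every naive array, both 3 h arrays were above, and 6 h ran from the lowest to the highest of the 16. The differences were 0.02 (SE 0.25) in trained, -0.42 (SE 0.36) at 0 h, -0.15 (SE 0.32) at 6 h and -0.34 (SE 0.36) at 12 h. Atp5f1c, the rotating central shaft, was higher at 6 h by 0.47 (SE 0.20). Atp5f1b, the catalytic subunit, was higher at 12 h by 0.41 (SE 0.19), and Atp5pf, of the outer stalk, had a 12 h difference of -0.60 (SE 0.24) by X54510_at and -0.26 (SE 0.29) by X54510_g_at.

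Atp5f1d and Atp5f1e are the small subunits at the foot of the central shaft. At 0 h Atp5f1d was low by both probe sets and Atp5f1e by 1 of 2. For Atp5f1d, U00926_at gave 9.06, 8.80 and 8.11 in naive, 7.83 and 8.24 at 0 h, 8.71 and 8.66 at 2 h, 8.86 and 8.68 at 3 h, 8.60, 8.49 and 9.00 at 6 h, 8.26 and 7.97 at 12 h, and 9.12 and 9.02 at 24 h and U00926_g_at gave 9.68, 9.50 and 8.85 in naive, 8.52 and 9.02 at 0 h, 9.20 and 8.78 at 2 h, 9.58 and 9.36 at 3 h, 9.26, 9.12 and 9.55 at 6 h, 8.75 and 8.73 at 12 h, and 9.64 and 9.73 at 24 h. The 0 h and 12 h arrays were low in both, near naive replicate 3, which was well below the other naive arrays. At 0 h the differences were -0.62 (SE 0.26) and -0.57 (SE 0.25), and at 12 h the second was -0.60 (SE 0.25). Atp5f1e read 10.15, 10.09 and 9.12 in naive, 8.88 and 9.17 at 0 h, 9.85 and 9.68 at 2 h, 10.31 and 10.48 at 3 h, 9.72, 9.09 and 10.47 at 6 h, 9.49 and 9.19 at 12 h, and 10.22 and 10.34 at 24 h by rc_AI171844_at, again with 0 h low and naive replicate 3 close to it, and a 0 h difference of -0.76 (SE 0.34). By rc_AI171844_g_at the 0 h difference of Atp5f1e was -0.08 (SE 0.21), and the gene was higher at 6 h by 0.53 (SE 0.19).

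Atp5if1, the inhibitor that stops the synthase from running backwards and burning ATP, had its lowest levels at 12 h by 1 of 4 probe sets. D13122_i_at gave 5.89, 5.49 and 4.89 in naive, 4.04 and 5.44 at 0 h, 5.16 and 4.76 at 2 h, 5.75 and 5.73 at 3 h, 4.92, 5.53 and 6.29 at 6 h, 2.34 and 3.97 at 12 h, and 5.59 and 5.49 at 24 h. Both 12 h arrays were below all others, replicate 1 at the lowest level measurable. The difference at 12 h was -2.27 (SE 0.51, adjusted p = 0.199), a bound because of replicate 1. Without replicate 2 the hour is left with that 1 array at the lowest level, and no level was then measured at 12 h. The other 3 probe sets were higher than naive at 12 h, from 0.03 to 0.46. One of them, rc_AA891873_f_at, gave 8.67, 8.67 and 8.22 in naive, 8.30 and 8.01 at 0 h, 8.55 and 8.60 at 2 h, 8.82 and 9.18 at 3 h, 9.25, 8.78 and 9.31 at 6 h, 8.88 and 8.47 at 12 h, and 8.73 and 9.21 at 24 h. It was above every naive array at 3 h and 6 h, with a 6 h difference of 0.59 (SE 0.21). The assembly factors had 1 unadjusted p under 0.05 each way. By rc_AI171562_at, 1 of 3 Ndufaf3 probe sets, the 6 h difference was 0.55 (SE 0.25), while U95161_s_at gave -0.45 (SE 0.26) and U95162_at 0.01 (SE 0.34). For Sdhaf2 the 2 h difference was -0.57 (SE 0.26).

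Probe sets of the same gene often disagreed, and more so at some hours. Of the 27 genes with several tested probe sets, those whose probe sets differed in direction numbered 18 at 0 h, 13 at 2 h, 10 at 3 h, 13 at 6 h, 17 at 12 h, 10 at 24 h and 15 in trained. The median gap between the highest and the lowest probe set of a gene was 0.61 at 0 h, 0.35 at 2 h, 0.34 at 3 h, 0.44 at 6 h, 0.65 at 12 h and 0.18 at 24 h. The gap was over 1 for 5 genes at 12 h, namely Ndufb8, Cox8a, Cox6c, Ndufs8 and Atp5if1, where it was largest at 2.74. The median actin ratio was 2.46 at 0 h, 2.32 at 2 h, 1.83 at 3 h, 2.02 at 6 h, 2.60 at 12 h and 1.81 at 24 h. The 2 hours with the largest gaps thus had the highest ratios. The part of RNA completeness in these gaps was not tested.

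**Figure D5:**
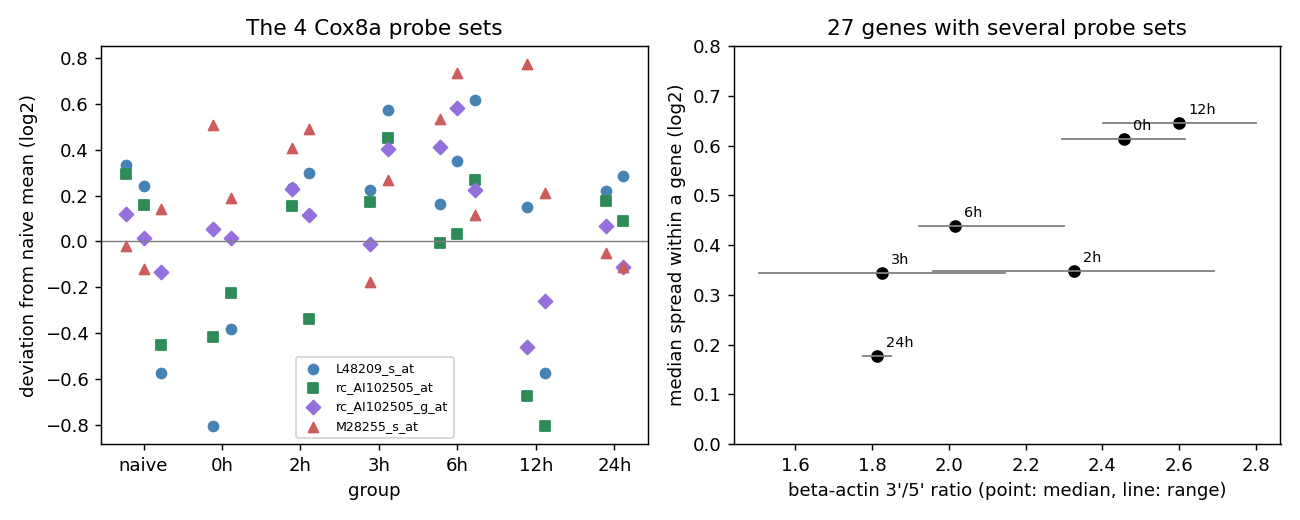
Left, deviation from the naive mean (log2) of the 4 Cox8a probe sets on each array, where M28255_s_at is above and rc_AI102505_at below the naive mean at 0 h and 12 h. Right, the median gap between probe sets of 1 gene over 27 genes (vertical axis, log2) against the beta-actin 3′/5′ ratio of the hour (median as a point, range as a line), from 0.18 at 24 h to 0.65 at 12 h.

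Taken as 1 probe set per gene, the one with the highest mean, 39 of 56 genes were higher in trained, 42 at 6 h, 31 at 12 h and 42 at 24 h. At an unadjusted p under 0.05, 11 genes were higher and 2 lower at 6 h, and 5 higher and 9 lower at 12 h. As the mean of each gene's probe sets, 3 genes were higher and 3 lower at 6 h, and 5 higher and 7 lower at 12 h. At 12 h that mean was higher in 23 of 56 genes, so the direction at 12 h depended on how probe sets were combined. The same counts over all genes are not given here. Whether these gene counts exceed the share of all genes therefore cannot be told.

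Subunits encoded in the mitochondrial DNA, measured by 4 probe sets for 3 complex IV genes, leaned higher at most hours. All 4 were higher than naive at 0 h (median 0.51), 2 h (0.47), 6 h (0.72) and 12 h (0.71), and all 4 were lower at 24 h (-0.24). At 3 h, 3 of 4 were lower (-0.14). The median actin ratio was 2.46, 2.32, 2.02 and 2.60 at 0 h, 2 h, 6 h and 12 h. It was 1.83 at 3 h, 1.81 at 24 h and 1.49 to 1.70 on the naive arrays. COX1, the catalytic core of complex IV, read 11.88, 11.81 and 11.97 in naive, 12.08 and 12.46 at 0 h, 12.16 and 12.36 at 2 h, 11.60 and 11.98 at 3 h, 13.16, 12.63 and 12.13 at 6 h, 13.24 and 11.95 at 12 h, and 11.79 and 11.66 at 24 h by rc_AA893485_g_at. At 6 h it was higher by 0.75 (SE 0.29) and at 12 h by 0.71 (SE 0.33), where 1 array was far above naive and the other within it. By rc_AA850885_s_at the differences were 0.85 (SE 0.37) at 2 h, 0.76 (SE 0.33) at 6 h and 0.81 (SE 0.37) at 12 h. None passed the adjusted threshold. By rc_AA893485_g_at the highest arrays, 12 h replicate 1 and 6 h replicate 1, had trimmed means of 33.3 and 56.5 before scaling. Those of the lowest, 3 h replicate 1 and 24 h replicate 2, were 148 and 170. But 2 h replicate 2, with 56.6, read 12.36. The part of RNA completeness and of array brightness was not tested.

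The citric acid cycle, which feeds NADH and succinate to the chain, was listed together with pyruvate dehydrogenase and related enzymes. This list had more probe sets lower than higher in trained and at most hours. Of 23 probe sets for 13 genes, 16 were lower in trained (median -0.14), 18 at 2 h, 12 at 3 h, 15 at 6 h, 16 at 12 h and 15 at 24 h. At 0 h the balance was the reverse, with 14 higher and 9 lower (median 0.054). The share higher was 30.4% in trained, against 47.6% of all probe sets, and 60.9% against 47.3% at 0 h. It was 21.7% against 52.7% at 2 h, and 47.8% against 41.3% at 3 h, where the list leaned lower less than all did. Later it was 34.8% against 46.8% at 6 h, 30.4% against 55.9% at 12 h and 34.8% against 49.5% at 24 h. Pdha1, the entry enzyme from pyruvate, had differences of -0.50 (SE 0.23) in trained, -0.88 (SE 0.30) at 6 h and -0.80 (SE 0.33) at 12 h. Dlst was lower at 6 h (-0.78) and 12 h (-0.79), Pdk2 at 6 h (-0.58), and Dlat at 3 h (-0.47) and 6 h (-0.61) by 1 probe set each. The 3 with an unadjusted p under 0.05 at 0 h were all lower, namely Cs (-0.75), Idh2 (-0.93) and Pc (-0.65). The list had no probe set higher at an unadjusted p under 0.05 in any comparison, and none that passed the adjusted threshold.

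Among mitochondrial carriers and channels, 11 of 22 probe sets were higher in trained (median 0.03). Vdac1, the main pore of the outer membrane, had a trained difference of -1.11 (SE 0.35). By the same probe set it was lower at 2 h (-1.19), 3 h (-1.41), 6 h (-1.40) and 24 h (-1.24), and by AF048828_g_at at 6 h (-1.02). Slc25a14, a brain uncoupling protein, was higher by 0.49 (SE 0.18) in trained, by 0.70 at 0 h and by 0.69 at 12 h, and by its other probe set by 0.61 at 0 h. Tspo, an outer membrane protein rich in glia, was lower in trained (-0.53) and at 0 h (-0.80).

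Regulators of mitochondrial biogenesis and assembly were higher in trained for 10 of 14 probe sets (median 0.02), with none at an unadjusted p under 0.05. The chaperone Hspd1 was higher at 0 h by 0.44, and the import motor Hspa9 was lower at 6 h by 2 probe sets (-1.15 and -0.86). The list of the inhibitor and the vacuolar proton pump, a relative of the ATP synthase outside mitochondria, had 8 of 12 higher in trained (median 0.08), and Atp6v0a1 was lower at 2 h (-0.87). At 6 h, 9 of 16 neuron marker probe sets were lower at an unadjusted p under 0.05, against 6.29% of all probe sets. Snap25, Syt1 and Map2 were among the 9. The median of the 16 was -0.69, and 5 of them were higher than naive. Nuclear subunits had 6 h medians of 0.13 for complex I, 0.24 for III, 0.21 for IV and 0.24 for V. At 24 h, 12 of 13 oligodendrocyte probe sets were lower at an unadjusted p under 0.05 (median -0.95), against 3.47% of all. The part of these cell markers in the member values was not tested.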

How the data were processed

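The authors deposited 1 linear intensity per probe set and array, with no further statement per the labels. Which software made them, and with what background correction and scaling, is not given in the sources used here. Of 8799 probe sets, 59 were controls. All 16 arrays were brought to the same 2% trimmed mean (105), and intensities below 5.05, the 20th percentile over all arrays, were raised to that value before taking log2. Probe sets above the pooled 40th percentile (16.9) on at least 2 arrays were tested. Their number of arrays limits the precision.

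The 7 groups were fitted in 1 linear model (limma 3.58.1, R 4.3.3; lmFit, then eBayes with trend), with Benjamini-Hochberg adjustment over 6220 probe sets at 0.05, and the script was tested on simulated data. Trained is the equal-weight mean of the 6 hours. Symbols come from GEO's platform annotation, checked by gene identifier for 6985 probe sets against RefSeq (GRCr8). Of 8740 probe sets, 7006 carried 1 symbol, 308 several and 1426 were not listed.

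The members, gene lists and marker lists were chosen with earlier results of these data known. Values on every array are given for the complex IV isoforms, for the probe set with the smallest p of each complex in trained minus naive, and for members with an unadjusted p under 0.05 in the F test over the 7 groups. Other members and list genes are named where their unadjusted p was under 0.05 in the comparison at hand. Alternatives covered array weights, scaling, the groups fitted, the variance model, the lowest level and the filter, a replicate block, and each array left out. Combining probe sets by gene, and counts at an unadjusted p, were added after the data were seen. No time point had a known scan or hybridisation batch to test.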

Additional observations from a re-analysis of the deposited data

How the results depend on the processing

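Each result was recomputed under 28 alternatives. The 69 named differences were picked at an unadjusted p under 0.05 in the main fit of the same arrays. That choice nearly fixed their direction. All 69 kept it in every alternative that tested them, which adds no support. Of these, 5 passed the adjusted threshold when 1 array was left out, and the cause was not tested. They include the second Cox8b probe set, which entered the test through 2 naive arrays alone, and D13122_i_at of Atp5if1 at 12 h, where the 1 array left was at the lowest level, so these calls support nothing. Those described above for the first Cox8b probe set came from leaving out its lowest naive or its highest 6 h array, and add no support either. Leaving out 1 array at a time, members at an adjusted p under 0.05 numbered 0 to 2 in trained, and 0 to 1 at 3 h, 6 h and 12 h. The median member difference ran from -0.081 to 0.16 at 2 h, from 0.018 to 0.25 at 24 h and from 0.0005 to 0.17 in trained. With median centring it was 0.37 at 3 h. Members higher at 6 h at an unadjusted p under 0.05 numbered 7 to 16 with 1 array left out, 6 with quantile normalization, 7 without the variance trend, 6 with array weights, 7 with only the groups compared and 3 as gene means. Members lower at 6 h numbered 2 to 10 with 1 array left out. Members higher at 12 h numbered 1 to 11 with 1 array left out, 3 with median centring, 5 without the variance trend, 5 with 1 probe set per gene and 5 as gene means, and members lower at 12 h numbered 9 to 18, 9 with 1 probe set per gene and 7 as gene means. The F test over the 7 groups took 11 to 33 with 1 array left out, and 14 without the variance trend, with 1 probe set per gene or as gene means. The F test over the hours took 13 with 1 probe set per gene and 14 as gene means, which test fewer features. Groups of 2 or 3 arrays limit every comparison, and where an hour was left with 1 array it was assumed to vary like the other groups. Over same-numbered arrays the correlation of deviations had a median r of 0.02 (43 pairs, from -0.20 to 0.19, with 12 over 0.1), and over different-numbered arrays of -0.02 (66 pairs, with 6 over 0.1). In a group of 2 arrays the deviations from the group mean mirror each other, so the same-numbered and different-numbered values are not independent. These values therefore cannot show whether same-numbered arrays share a batch. The main fit treated the arrays as sharing only a number. With a replicate block, 5 members were higher and 14 lower at 12 h, 11 were higher and 4 lower at 6 h, and no member passed the adjusted threshold.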
